A study of Mus musculus with 2 samples.

Results

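The 86 genes described here encode potassium channels and their auxiliary subunits. They are the protein-coding genes of the GENCODE M21 annotation of the mouse genome (mm10) whose symbol is Kcn, a subfamily letter code and a number. Of 92 such symbols, 6 were left out by name: Kcnj1, Kcnj10, Kcnj15, Kcnj16 and Kcnq1, channels of the renal tubule, and Kcnk9. The rule uses names and no measured value, takes 86 of 21938 protein-coding genes, and was set with earlier results of these data known. The assay was DNase-seq: nuclei are treated with DNase I, which cuts DNA that nucleosomes leave exposed, and the ends of the cuts are sequenced to map open chromatin. The tissue was kidney of 36-day-old female B6CASTF1/J mice, untreated as far as the labels say, the F1 cross of the laboratory strain C57BL/6J with CAST/EiJ, a strain derived from wild mice. There was 1 group with n = 2 libraries, called replicate 1 and replicate 2, and no second condition, so no test between groups could be made and every value below is a description. The labels number the females separately but give both libraries the same donor entry.

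Potassium channels let potassium ions leave or enter cells down their electrochemical gradient and so set the membrane potential. Voltage-gated subfamilies open on depolarization and are known mainly from neurons, heart and muscle, inward rectifiers and tandem-pore channels carry current near the resting potential, and a further class opens with intracellular calcium or sodium. In the kidney, potassium channels recycle potassium across tubule cell membranes, secrete it into the urine and hold the tone of renal arterioles.

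A peak is an interval the authors called as accessible, here from the stricter of the authors' peak sets for each library, and a footprint is a short stretch inside accessible DNA that was protected from DNase I. Replicate 1 had 124504 peaks and 375848 footprints, and replicate 2 had 68056 peaks and 223827 footprints. How many reads stood behind these is not given in the sources used here. A peak's height is the signal value that the authors gave it, in a unit no source states, and each height is given for replicate 1 first and for replicate 2 second, without a test. A promoter is the 1 kb on either side of any annotated start site of a gene. The labelled tissue was checked with marker genes: promoters had a peak in both libraries at 4 of 4 proximal tubule, 3 of 3 thick ascending limb, 2 of 2 distal convoluted tubule, 3 of 3 principal cell, 4 of 4 endothelial and 4 of 5 mural markers. The counts were 1 of 3 for intercalated cells, 2 of 4 for podocytes, 3 of 6 for neurons (Snap25, Rbfox3 and Syn1), 1 of 5 for heart and skeletal muscle (Ckm) and 0 of 4 for immune cells. Of all protein-coding genes 60.7% had a promoter peak in both libraries, so lists this short check the tissue only weakly. In bulk tissue, a site open in few cells and a site weakly open in many cells cannot be told apart.

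Fewer potassium channel promoters than promoters in general carried a peak in both libraries, and more carried one in replicate 1 alone. A promoter peak was present in both libraries at 31 of the 86 genes (36.0%), against 60.7% of all protein-coding genes. It was present in replicate 1 alone at 23 genes (26.7%), against 6.19% of all genes. Kcnk4 had one in replicate 2 alone, and 31 genes had none in either library. Replicate 1 had a peak at 54 of the promoters (62.8%), close to its 66.9% of all genes, and replicate 2 at 32 (37.2%), against 60.9% of all genes. Over all 86 genes the distance thus rests mostly on replicate 2: without that library the count is 54 in place of 31. Among genes with a promoter peak in any library, it was found in both at 31 of 55 potassium channel genes (56.4%) and at 90.5% of all genes.

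**Figure D1:**
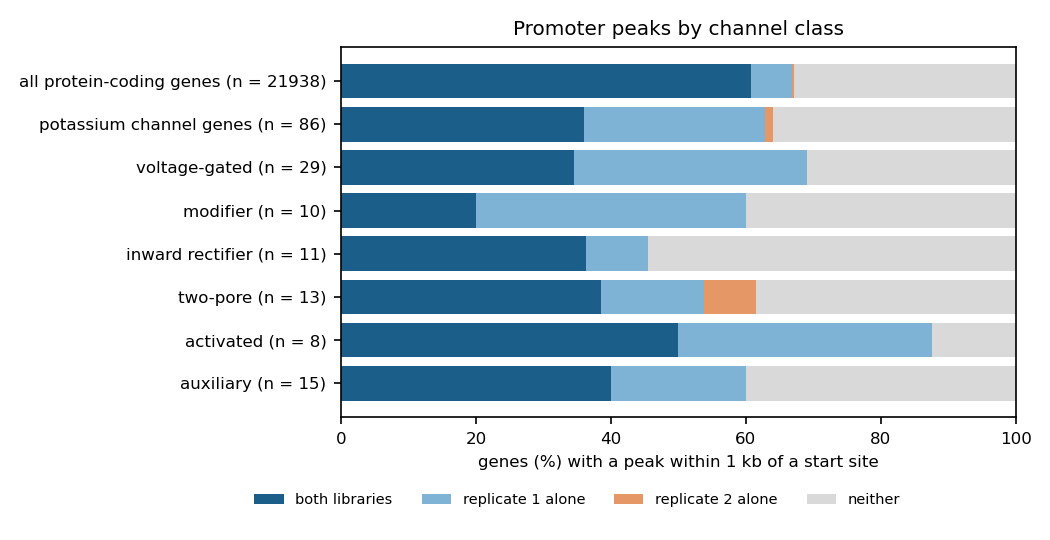
Share of genes (%, horizontal axis) with a promoter peak (within 1 kb of a start site), split by whether both libraries, 1 of them or neither had it, for all protein-coding genes, the 86 potassium channel genes and their 6 classes. Peaks in both libraries were found at 36.0% of promoters for the 86 genes and 60.7% for all genes. By class they ran from 20% for modifier subunits to 50% for the activated class (calcium- and sodium-activated channels and Kcnu1).

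The promoters with a peak in both libraries were also low. Their strongest peaks had a median height of 2.58 in replicate 1 and 1.26 in replicate 2, against 8.26 and 5.37 over all genes with a promoter peak in both. Of the 31, 4 were above the all-gene median in replicate 1 and 3 in replicate 2. The strongest peaks overlapped between the libraries at 31 of 31 genes and were higher in replicate 1 at 31 of 31, as at 96.1% of all genes. At the 23 genes with a peak in replicate 1 alone the median height was 0.640, against 0.761 over all such genes. These low heights stand beside the smaller number of peaks called in replicate 2; their part in the count of genes seen in replicate 1 alone was not tested.

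The all-gene share moves with the CpG content of the promoter, and the count lay below it at high and middle CpG content and near it at low CpG content. In the highest 3 deciles of genes by CpG observed over expected at the 5′ end, 8 of 19 potassium channel genes (42.1%) had a promoter peak in both libraries, against 92.3% of all genes. In deciles 4 to 7 the count was 21 of 54 (38.9%), against 68.2%, and in the lowest 3 deciles 2 of 13 (15.4%), against 19%. Averaging the all-gene share over the deciles the 86 genes fall in gave 64.4%. In replicate 1 by itself the counts were 12 of 19 (63.2%) against 95.9% in the highest 3 deciles and 36 of 54 (66.7%) against 77.0% in deciles 4 to 7. The lowest 3 deciles went the other way there, with 6 of 13 potassium channel genes (46.2%) against 24.4% of all genes.

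**Figure D2:**
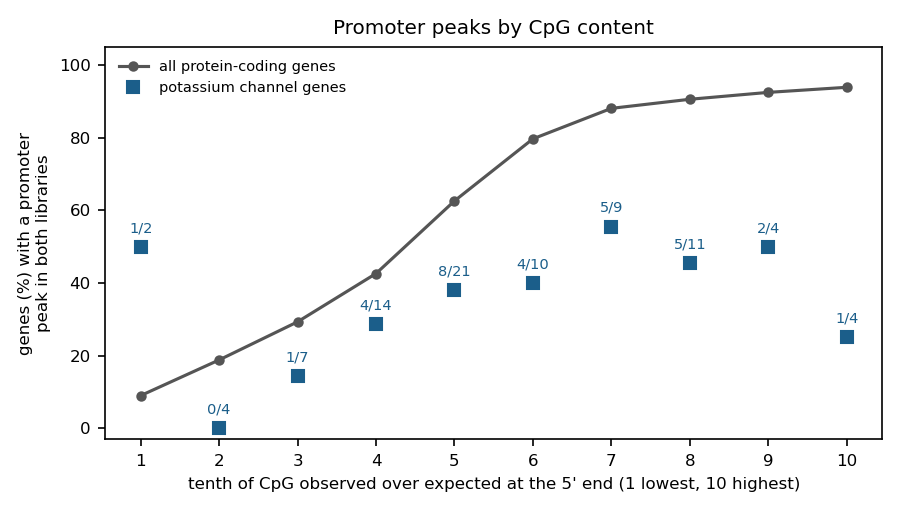
Share of genes (%, vertical axis) with a promoter peak in both libraries in each decile of CpG observed over expected (horizontal axis, 1 lowest, 10 highest), for all protein-coding genes (line) and for the potassium channel genes (squares, with the count of genes). Squares lie below the line in every decile but the first, where 1 of 2 genes had a peak.

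Sequences are shown, for each class but the modifier genes, for the highest promoter peak that lay far enough outside annotated exons, since these are among the highest channel promoters in both libraries. Kcnab2, the highest of its class, is not shown because too little of its peak lay outside exons. Each sequence is from RefSeq's GRCm38.p6 chromosomes (the mm10 sequence), runs 5′ to 3′ in the direction of the gene, and has in capitals the bases inside a footprint of both libraries. The stretches are chr1:192190641-192190773 (plus strand) for Kcnh1, chr11:111066001-111066163 (plus) for Kcnj2, chr14:20181810-20181980 (minus) for Kcnk5, chr3:89520001-89520160 (plus) for Kcnn3 and chr11:69326161-69326257 (plus) for Kcnab3.
Kcnh1: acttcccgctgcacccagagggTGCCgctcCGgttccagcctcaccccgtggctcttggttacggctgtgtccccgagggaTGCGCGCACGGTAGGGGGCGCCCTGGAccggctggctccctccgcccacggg
Kcnj2: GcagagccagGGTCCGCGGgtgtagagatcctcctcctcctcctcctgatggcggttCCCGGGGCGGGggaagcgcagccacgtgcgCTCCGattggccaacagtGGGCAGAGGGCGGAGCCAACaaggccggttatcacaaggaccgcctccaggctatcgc
Kcnk5: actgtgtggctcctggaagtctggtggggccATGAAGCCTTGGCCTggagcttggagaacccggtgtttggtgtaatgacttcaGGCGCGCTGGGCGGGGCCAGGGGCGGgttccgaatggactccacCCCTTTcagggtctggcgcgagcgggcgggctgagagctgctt
Kcnn3: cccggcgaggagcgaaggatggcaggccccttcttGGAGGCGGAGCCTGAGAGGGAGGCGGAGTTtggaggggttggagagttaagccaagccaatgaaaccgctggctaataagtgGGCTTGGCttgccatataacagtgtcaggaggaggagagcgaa
Kcnab3: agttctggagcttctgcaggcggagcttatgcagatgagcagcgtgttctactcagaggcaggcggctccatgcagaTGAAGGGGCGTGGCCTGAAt
The Kcnj2 and Kcnk5 stretches hold the letters GGGCGG, the core bound by SP and KLF factors, in a footprint of both libraries. The Kcnj2 stretch also holds CACGTG, the E-box, outside the capitals.

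Among the 29 voltage-gated pore-forming genes, 10 promoters (34.5%) had a peak in both libraries, a further 10 had one only in replicate 1, and 9 had none. The Kcnh genes, the ether-a-go-go family, had a peak in both at 4 of 8, and the Kcna genes, Shaker-related channels, at 2 of 8. No promoter of the 3 Kcnd genes, the transient outward channels of heart and neurons, had a peak in both libraries.

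Among Kcnc genes, Shaw-related channels that repolarize fast-spiking neurons, Kcnc1 had 2.58 in replicate 1 and 1.2 in replicate 2, Kcnc2 had 0.909 and 0.652, and Kcnc4 had no promoter peak.

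Kcnh1, the ether-a-go-go channel best known from brain and tumours, had 4.83 and 2.05 at chr1:192190641-192190820. Kcnh6 had 2.80 and 1.43, Kcnh2, the channel of cardiac repolarization, had 2.60 and 1.26, and Kcnh3 had 1.85 and 0.886. The Kcnh2 peak lies near an internal start, 21.8 kb from the 5′ end. In this subfamily Kcnh4 (0.919), Kcnh7 (0.510) and Kcnh5 (0.260) had a peak in replicate 1 alone, and Kcnh8 had none.

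Kcnb2, a slow delayed rectifier, had 0.640 in replicate 1 alone.

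Among Kcna genes, Kcna6 had 2.15 and 1.01 near an internal start, 3.48 kb from the 5′ end. With starts of coding transcripts only, Kcna6 no longer counted as having a promoter peak in both libraries. Kcna5, a channel of atrium and arterial muscle, had 0.399 and 0.387, the lowest promoter peak of the 31 in each library. Kcna7, known from muscle, had the highest promoter peak seen in 1 library alone, 2.24 in replicate 1, and a shared peak 1.91 kb upstream of its 5′ end with 4.87 and 1.98. Kcna3, the channel of lymphocytes, had 1.13 and Kcna4 had 0.371 in replicate 1 alone. Kcna1, Kcna2 and Kcna10 had no promoter peak. Kcnd3 (0.770) and Kcnq5 (0.427) had a peak in replicate 1 alone, and Kcnd1, Kcnd2 and Kcnq3, the last a subunit of the neuronal M-current, had none.

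The modifier genes encode subunits that form no channel by themselves and join Kcnb subunits. Of 10, 2 promoters had a peak in both libraries, Kcng1 with 1.74 and 0.723 and Kcns3 with 0.993 and 0.632. The count was 0 of 10, against 52.8% of all genes, when each library was limited to the stronger 50% of its peaks. Kcns2, Kcng2, Kcng3 and Kcnf1 had a peak in replicate 1 alone, between 0.399 and 0.854, and Kcng4, Kcns1, Kcnv1 and Kcnv2 had none.

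**Figure D3:**
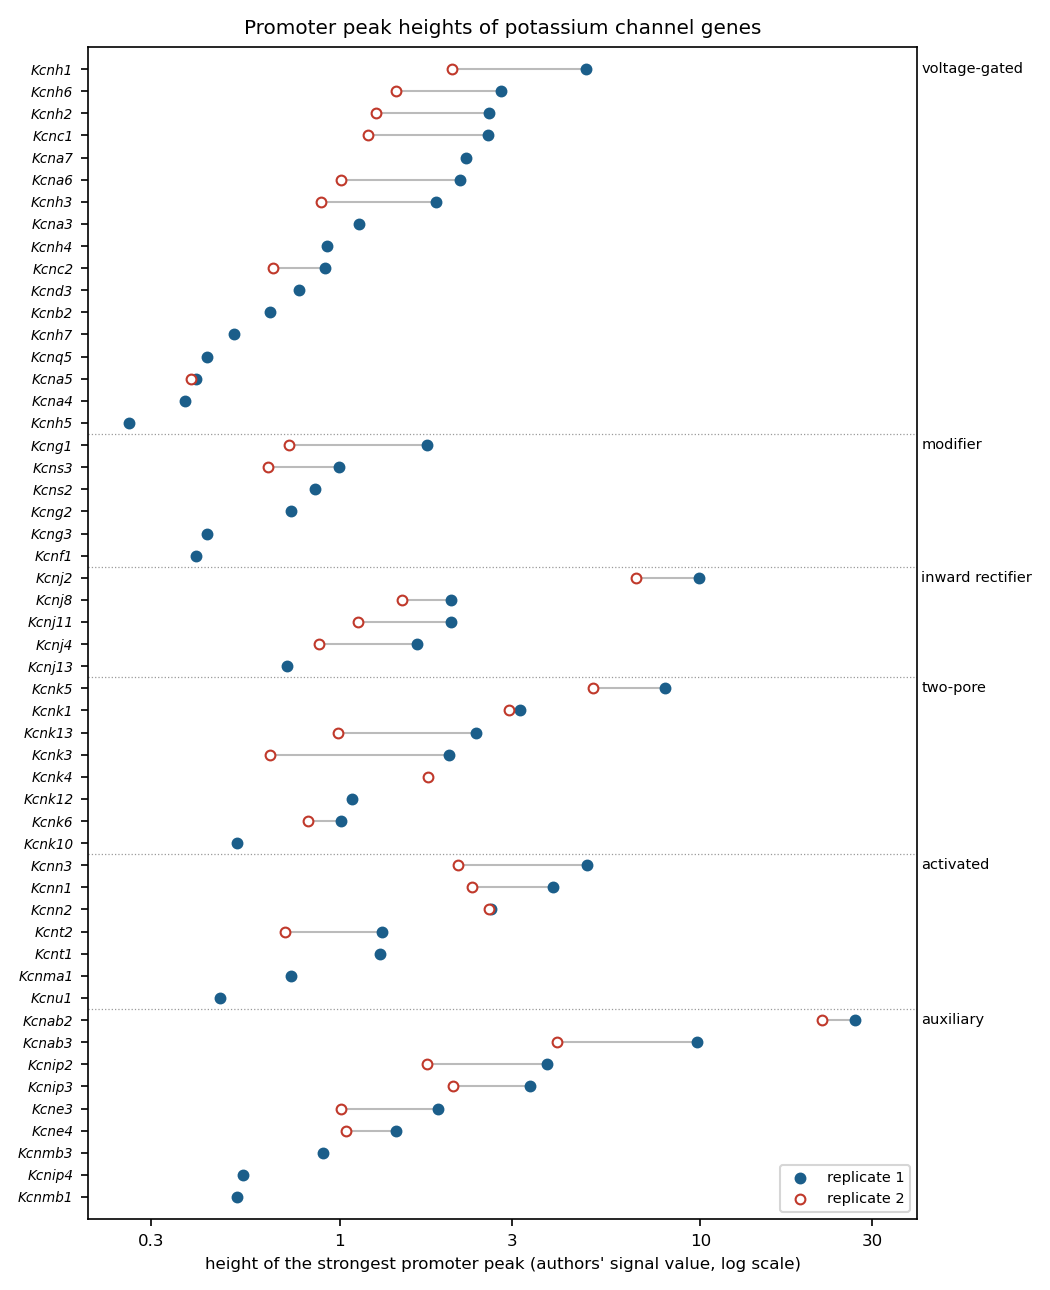
Height of the strongest promoter peak (the authors' signal value, logarithmic horizontal axis) for the genes described here that had one, by class; filled points are replicate 1, open points replicate 2, and a line joins a gene's values. Kcnab2 (26.8 and 21.8) stands highest, and the genes with replicate 1 alone reach at most 2.24.

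Of 11 inward rectifier genes, 4 promoters (36.4%) had a peak in both libraries, Kcnj13 had one in replicate 1 alone and 6 had none. Kcnj2, the strong inward rectifier of muscle, endothelium and neurons, had 9.90 and 6.61 at chr11:111066001-111066200, with 6 footprints matched between the libraries. Kcnj16, one of the tubular channels left out here, starts 42241 bp from this peak. Kcnj8, the pore of the vascular ATP-sensitive channel, had 2.04 and 1.49 at chr6:142571381-142571680. Kcnj11, the pore of the ATP-sensitive channel of beta cells and muscle, had 2.03 and 1.12 at chr7:46100761-46100920. The sulfonylurea receptor genes whose products join these pores differed from them: Abcc9 had 0.464 in replicate 1 alone, and Abcc8, whose nearest start is 4992 bp from the Kcnj11 peak, had no promoter peak. Kcnj4 had 1.64 and 0.876, in a peak 860 bp from its start that is lost with a window of 500 bp. Kcnj13, a channel of transporting epithelia, had 0.715. The G-protein-gated genes Kcnj3, Kcnj5, Kcnj6 and Kcnj9 had no promoter peak in either library, nor had Kcnj12 and Kcnj14.

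Of 13 tandem-pore genes, 5 promoters (38.5%) had a peak in both libraries, and these were the genes Kcnk1, Kcnk3, Kcnk5, Kcnk6 and Kcnk13. Kcnk5, the alkaline-activated background channel of the proximal tubule, had 7.97 and 5.04 at chr14:20181761-20181980, with 5 footprints matched. Kcnk1, a weakly conducting channel present along the nephron, had 3.15 and 2.94 at chr8:125995221-125995460. Kcnk13 had 2.38 and 0.988, Kcnk3, an acid-sensitive background channel, had 2.01 and 0.642, and Kcnk6 had 1.01 and 0.815. Kcnk12 (1.08) and Kcnk10 (0.520) had a peak in replicate 1 alone. Kcnk4, a mechanosensitive channel, had 1.76 in replicate 2 and no strict peak in replicate 1, where the authors' file of false discovery rates lists an interval at 0.0014. Kcnk2, Kcnk7, Kcnk15, Kcnk16 and Kcnk18 had none.

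The activated class held 8 genes, those for channels opened by calcium or sodium and, grouped with them by family, Kcnu1. Of these, 4 promoters (50%) had a peak in both libraries, a further 3 had one only in replicate 1, and 1 had none. The Kcnn genes, for calcium-activated channels of small and intermediate conductance, had a peak in both libraries at 3 of 4 promoters. Kcnn3, known from endothelium and neurons, had 4.85 and 2.13 at chr3:89520001-89520160, Kcnn1 had 3.91 and 2.33 at chr8:70856961-70857120, and Kcnn2 had 2.62 and 2.60. The Kcnn1 peak lies at an internal start in an intron, 6.22 kb inside the gene. The Kcnn2 peak lies at an internal start 291 kb from the 5′ end, and a peak near the 5′ end had 0.798 and 0.53. Kcnn4, the intermediate-conductance channel of blood cells and epithelia, had no promoter peak. Kcnt2, sodium-activated, had 1.31 and 0.703 and its paralog Kcnt1 had 1.29 in replicate 1 alone. Kcnma1, the large-conductance channel of flow-stimulated potassium secretion, had 0.733 in replicate 1 alone, and Kcnu1, its sperm-specific relative, had 0.464.

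Of 15 auxiliary genes, 6 promoters (40%) had a peak in both libraries. Kcnab2, a cytoplasmic beta subunit of Shaker-related channels, had the highest promoter peak of all 86 genes, 26.8 and 21.8 at chr4:152477521-152477700. A start of Nphp4, a ciliary gene mutated in nephronophthisis, lies 531 bp from it and a start of Kcnab2 67 bp from it, so the Kcnab2 promoter is not separate from its neighbour at this window. Kcnab3 had 9.79 and 3.99 at chr11:69326161-69326300, and Kcnab1 had none. Kcnip3, a calcium-binding protein that joins Kcnd channels and also binds DNA, had 3.36 and 2.06 at chr2:127482521-127482740. This peak lies near an internal start, 39.5 kb from the 5′ end. Kcnip2, the cardiac relative of Kcnip3, had 3.76 and 1.75 in a peak 880 bp from the nearest Kcnip2 start. Kcnip4 had 0.538 in replicate 1 alone and Kcnip1 had none. Kcne3, which holds Kcnq1 open in epithelia, had 1.87 and 1.01, and Kcne4 had 1.43 and 1.04. The Kcne3 peak lies at an internal start, 2.16 kb from the 5′ end. Kcne1 and Kcne2 had none. None of the 4 Kcnmb genes, whose products tune the Kcnma1 channel, had a peak in both: Kcnmb3 (0.900) and Kcnmb1 (0.520) had one in replicate 1 alone, and Kcnmb2 and Kcnmb4 had none.

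Genes with reported roles in the nephron and in vessels were read as lists. Of 16 renal genes, 6 had a promoter peak in both libraries (Kcnk1, Kcnk3, Kcnk5, Kcnk6, Kcnk13 and Kcne3), 3 in replicate 1 alone (Kcnma1, Kcnj13 and Kcnt1) and 7 in neither (Kcna10, Kcne1, Kcne2, Kcnj5, Kcnmb2, Kcnmb4 and Kcnn4). Of 9 vascular genes, 5 had one in both (Kcna5, Kcnj2, Kcnj8, Kcnj11 and Kcnn3), 3 in replicate 1 alone (Kcnmb1 and Kcnq5 among them) and Kcnk2 in neither. Beside these 60.7% of all genes had a peak in both, and the difference was not tested. The 5 tubular channels left out of the set had one at 4 of 5 promoters. Of 10 regulators of renal potassium handling, 9 had one, with heights in replicate 1 from 2.09 at Hsd11b2 to 26.8 at Oxsr1. Of 15 genes for partner proteins of potassium channels outside the Kcn symbols, 5 had one, 5 had one in replicate 1 alone and 5 had none. Pore-forming voltage-gated sodium and calcium channel genes had one at 4 of 19, with 6 in replicate 1 alone and 9 in neither.

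Some promoters without a peak still held weak signal. Of the 31 without a promoter peak in either library, 14 (45.2%) held an interval with a false discovery rate under 0.05 in replicate 1, against 13.5% of all genes without a promoter peak. The rates listed ran down to 0.00107 at Kcnd1. In replicate 2 the count was 3 (9.68%), at Kcnab1, Kcnc4 and Kcng4, against 4.01%. For 16 of the 31 neither library lists an interval there. Of the 23 promoters with a peak in replicate 1 alone, 14 (60.9%) had such an interval in replicate 2, against 62.0% of all genes in that state.

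Footprints were found in both libraries at 37 promoters (43.0%), against 62.1% of all genes. By class these were 12 of 29 voltage-gated, 3 of 10 modifier, 4 of 11 inward rectifier, 7 of 13 tandem-pore, 5 of 8 activated and 6 of 15 auxiliary genes. Kcnj2 had 9 footprints in replicate 1 and 6 in replicate 2, of which 6 matched over at least 50% of the shorter. Kcnk5 had 7 and 5, of which 5 matched. Footprints carry no score of their own in the deposited files.

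The letters of 11 binding motifs were searched on both strands in 300 bases at the strongest replicate 1 promoter peak of the 31 genes with a peak in both libraries, and in the same way at all 13314 such genes. GGGCGG occurred at 21 of 31 (67.7%), against 67.7% of all. It lay in a footprint of both libraries at 5, among them Kcnh2, Kcnj2, Kcnk5 and Kcnn1, while over all genes this share was 43.2%. Promoters of the 31 genes also held fewer footprints of any kind, with a median of 5 in replicate 1 and 3 in replicate 2. Over all such genes the medians were 8 and 6, and the part of this difference in the count was not tested. CCGGAAG (ETS factors) occurred at 0, against 19.2%, GCGCATGC (NRF1) at 0, against 5.80%, TGACGTCA (CREB and ATF) at 0, against 3.72%, and AAGGTCA (nuclear receptors) at 0, against 2.92%. CACGTG occurred at 4 (12.9%), against 11.2%, and TGANTCA (AP-1) at 2 (6.45%), against 4.36%. GTTAATNAT (HNF1) and CAAAGTCCA (HNF4), letters of factors of the proximal tubule, occurred at 0, against 0.443% and 0.661%. No test was made of these counts.

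TTCAGCACC, the left part of the element bound by REST, a repressor of neuronal genes outside neurons, occurred at 4 of 31 (12.9%), against 0.631% of all. Among them were Kcnc1, Kcnh6 and Kcnk3. The 30 bases from the left part on are shown for Kcnh6 and Kcnk3, where it lies outside annotated exons, since these are the letters the count rests on, with the left part in capitals. They are chr11:106007962-106007991 (plus strand) for Kcnh6 and chr5:30588085-30588114 (minus) for Kcnk3, from the same RefSeq sequence.
Kcnh6: TTCAGCACCacgacgcggacagctcccggg
Kcnk3: TTCAGCACCacccaccaccctcctccgccc
At the spacing of the usual element, 3 of the 9 letters of its right part, GGACAGCGC, matched at Kcnh6 and 4 of 9 at Kcnk3. In the Kcnh6 stretch the letters GGACAGC begin at base 17, counted from 1 at its 5′ end, farther from the left part than in the usual element. The Kcnh6 left part lay wholly in a footprint of replicate 1 but not in one of replicate 2. A replicate 2 footprint touched the stretch that begins with the left part and runs past it. Whether that footprint reached the left part itself was not examined. The left part at Kcnk3 lay in no footprint of either library. Over the 1001 bases around the 5′ end of each of the 86 genes, with or without a peak, TTCAGCACC occurred at 5 (5.81%), against 1.53% of all genes. GGACAGCGC occurred at 1 of the 31 peaks (3.23%), against 1.02%, and at 2 of the 86 (2.33%), against 1.71%. Motifs found at 0 of the 31 peaks were present in the 1001 bases. CCGGAAG was at 9.3% against 19.2%, GCGCATGC at 2.33% against 5.56%, and TGACGTCA at 2.33% against 3.32%. AAGGTCA was at 17.4% against 14.5%, GTTAATNAT at 3.49% against 2.09%, and CAAAGTCCA at 1.16% against 1.62%.

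Within gene bodies extended by 10 kb at both ends, peaks shared by the libraries (overlapping by at least 1 base) numbered 209, with a median of 2 per gene, as over all genes. At least 1 shared peak lay at 68 of 86 genes (79.1%), against 75.6% of all genes. Potassium channel genes were longer, with a median of 28.0 kb against 17.4 kb, and held 1.80 shared peaks per 100 kb against 4.70. Of the 209, 39 were within 1 kb of a start of the gene itself, 30 within 1 kb of a start of another gene, and 140 were over 1 kb from every start. These 140 will be called distal: 90 lay in introns, 3 in exons, 24 upstream and 23 downstream, and 123 (87.9%) held a footprint in both libraries. Their median height was 2.05 in replicate 1 and 1.11 in replicate 2, beside 2.11 in replicate 1 for all distal shared peaks of the genome.

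At least 1 distal shared peak lay at 55 genes (64.0%), against 52.3% of all genes. The shares in this paragraph were not adjusted for gene length, which was greater for the 86 genes (median 28.0 kb against 17.4 kb). Of the 31 genes without a promoter peak, 23 (74.2%) had a shared peak in the gene or its flanks, against 32.2% of all genes without a promoter peak. Part of these peaks belong to neighbours: the 3 shared peaks at Kcnj14 lie at starts of Cyth2 and Grwd1, and the 2 at Kcnd1 lie at starts of Otud5. Others lie inside the channel gene, as at Kcnj12, where 4 of 4 were intronic, with heights in replicate 1 from 0.445 to 2.65.

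**Figure D4:**
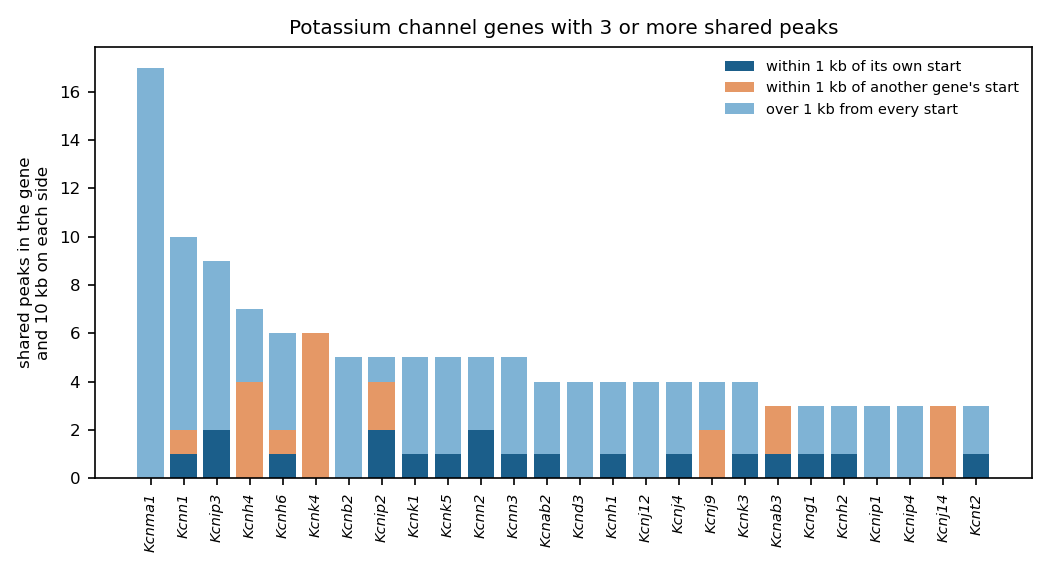
Number of shared peaks (vertical axis) in the gene and its 10 kb flanks for the genes described here with 3 or more, split into peaks within 1 kb of the gene's own start, within 1 kb of another gene's start and over 1 kb from every start. Kcnma1 has 17, each of them over 1 kb from every start, while the 6 of Kcnk4 are all at starts of other genes.

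Kcnma1, a gene of 725 kb at chr14:23289431-24014491, had the most shared peaks, 17, of which 17 were distal and 16 intronic. The highest, at chr14:23835541-23835920 in an intron 179 kb from the 5′ end, had 5.80 and 2.70. A further one 183 kb from the 5′ end had 4.58 and 3.01. Both are higher than the promoter peak of Kcnma1 in replicate 1.

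Kcnn1 had 10 shared peaks. One of them, with 33.7 and 32.3, lies 21 bp from a start of the neighbour Arrdc2. The highest distal peak of all 86 genes, 24.3 and 18.3, lies 2.57 kb upstream of the 5′ end of Kcnn1 at chr8:70865741-70865920, where no annotated start is within 1 kb. It was higher in each library than the Kcnn1 promoter peak and had 5 footprints in each. Kcnip3 had 9 shared peaks, of which 7 were distal, the highest with 4.56 and 3.95 downstream of the gene. Kcnh4 had 7, of which 4 lie within 1 kb of starts of other genes, the highest, with 25.4 and 21.7, at Rab5c. Kcnh6 had 6, the highest of them, with 12.5 and 12.1, at a start of Dcaf7. A distal peak 1.96 kb upstream of Kcnh6 had 7.71 and 3.65, above the Kcnh6 promoter peak of 2.80 and 1.43. Kcnk4 had 6, at starts of Esrra, Catsperz, Gpr137 and Bad.

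Kcnb2, Kcnip2, Kcnk1, Kcnk5, Kcnn2 and Kcnn3 had 5 each. At Kcnip2, 2 of the 5 lie within 1 kb of starts of Mgea5, the higher with 16.9 and 16.7. Kcnk5 had 4 distal peaks, the highest 8.17 kb upstream at chr14:20189881-20190080 with 7.79 and 5.69, close to the height of its promoter peak of 7.97 and 5.04. Kcnb2, which lacked a promoter peak in replicate 2, had 5 distal peaks in introns, the highest with 4.09 and 2.08. At Kcnk1 a peak in an intron 1.41 kb from the 5′ end had 4.10 and 2.94, beside 3.15 and 2.94 at the promoter.

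The distal peaks upstream of Kcnn1 and Kcnk5 are shown as whole sequences because they were among the highest of these genes away from starts. The orientation is that of the gene and capitals mark footprints of both libraries, as above. They are chr8:70865741-70865920 (minus strand) at Kcnn1 and chr14:20189881-20190080 (minus) at Kcnk5.
Kcnn1 distal peak: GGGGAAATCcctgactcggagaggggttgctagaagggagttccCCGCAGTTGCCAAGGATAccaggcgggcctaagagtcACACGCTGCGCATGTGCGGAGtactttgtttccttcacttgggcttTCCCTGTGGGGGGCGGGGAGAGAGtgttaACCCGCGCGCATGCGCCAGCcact
Kcnk5 distal peak: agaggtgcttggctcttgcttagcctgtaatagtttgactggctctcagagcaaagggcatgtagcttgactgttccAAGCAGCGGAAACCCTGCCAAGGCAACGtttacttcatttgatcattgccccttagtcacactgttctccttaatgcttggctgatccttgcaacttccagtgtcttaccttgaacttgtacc
The Kcnn1 peak holds GGGCGG and GCGCATGC in capitals. The Kcnk5 peak holds none of the 11 motifs, with a GC content of 47.5% against 61.1% at Kcnn1.

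No shared peak was found in the gene and its 10 kb flanks at 18 genes (20.9%), near the 24.4% of all genes. They were Kcna1, Kcna2, Kcna3, Kcna4, Kcna10, Kcnf1, Kcng2, Kcng3, Kcng4, Kcnh5, Kcnk10, Kcnk12, Kcnk15, Kcnmb1, Kcnmb4, Kcns1, Kcns2 and Kcnv1. The modifier class gave 7 of its 10 genes to this count, the voltage-gated class 6 of 29, the tandem-pore class 3 of 13 and the auxiliary class 2 of 15, while no inward rectifier and no activated channel gene was among them. Kcnk15, Kcnmb4 and Kcnv1 had no strict peak there in either library. Without replicate 2 the count fell to these 3 (3.49%, against 17.6% of all genes by the same count), so 15 of the 18 had a peak in replicate 1.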

How the data were processed

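DNase-seq of kidney gave 2 libraries of 1 group. Per the labels, the authors made each deposited file per library from reads aligned to mm10. No aligner, peak caller or depth is given in the sources used here. In the deposited peak files each peak has a signal value, its height, in whole multiples (within 0.0054) of 1 step per library. The deposited files of false discovery rates and of footprints hold p-values or rates, the footprint files 0.01 in every row. Of the 2 peak sets per library the one with fewer rows was used.

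Genes and start sites came from GENCODE M21. A peak counted for a promoter when it overlapped the window of 1 kb around any start, a footprint had to lie wholly in that window, and a peak belonged to a gene and its 10 kb flanks by its middle. Sequences came from RefSeq's GRCm38.p6. Python 3.11.15, numpy 2.4.6, pandas 2.3.3 and pysam 0.24.0 were used. Counting was tested on simulated data: of 43876 gene and library pairs, 386 held a simulated promoter peak and 0 differed from a brute-force count. With 1 group no test was possible. The rule for the genes and the lists were set with earlier results of these data known. Values are given for the 20 genes with the highest mean rank of promoter peaks, the 10 with most shared peaks (ties broken by symbol), the 6 highest in 1 library, and the renal and vascular lists. Values of further genes, added to complete a class, were chosen after they were seen, as were the Kcnj14, Kcnd1 and Kcnj12 examples and the letters in the Kcnh6 stretch. Alternatives were other windows, flanks, peak sets, overlaps and starts, and each replicate left out. Reads by allele were not analysed here, and some genes of the set enter the counts but are not reported by name here.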

Additional observations from a re-analysis of the deposited data

How the results depend on the processing

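Of 30 alternative values of the counts over all 86 genes, 19 stayed within 1.5 times the reported count or within the spread of the libraries, and 11 moved. The 31 promoters with a peak in both libraries were 30 with a window of 500 bp (all genes 59.1%) and 37 with 2500 bp (all genes 63.7%). They were 46 with the wider peak set (all genes 64.9%) and 30 with starts of coding transcripts (all genes 59.3%). They fell to 14 among the stronger 50% of peaks (all genes 52.8%). With 1 replicate left out they ran from 32 (37.2%, all genes 60.9%) to 54 (62.8%, all genes 66.9%), so over all 86 genes the low share rests mostly on replicate 2. In replicate 1 by itself the share was also low in the highest 3 CpG deciles (63.2%, all genes 95.9%) and in deciles 4 to 7 (66.7%, all genes 77.0%). It was higher than that of all genes in the lowest 3 deciles (46.2%, all genes 24.4%). The median of 2 shared peaks per gene was 4.5 with flanks of 50 kb (all genes 6) and 0 among the stronger 50% of peaks (all genes 1). It ran from 2 to 4 with 1 replicate left out, as over all genes. The 18 genes with no shared peak were 40 of 86 without flanks (all genes 45.8%), 6 with flanks of 50 kb (all genes 16.0%) and 10 with the wider set (all genes 20.5%). They were 48 among the stronger 50% (all genes 35.0%) and 31 for distal peaks (all genes 47.7%). The count thus lay above the all-gene share among the stronger peaks. It lay below that share with flanks of 50 kb, with the wider set, for distal peaks and without replicate 2. It ran from 3 (all genes 17.6%) to 18 (all genes 24.1%) with 1 replicate left out. The 37 promoters with a footprint in both libraries ran from 27 (all genes 59.0%) to 55 (all genes 67.5%) over all alternatives. By class, 8 of 48 values moved, among them the modifier count, 6 with the wider set. No paired analysis was possible because there was 1 group and no test. Depth is unknown, so weak promoters in replicate 2 cannot be told from absent ones.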
